A study of Mus musculus with 11 samples.

Results

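Aminoacyl-tRNA synthetases of the cytosol and of mitochondria were described in resting and stimulated mouse T cells of 2 genotypes. The group holds 36 genes: 20 enzymes or enzyme subunits of the cytosol, 14 mitochondrial enzymes whose symbols end in 2, and the scaffold genes Aimp1 and Aimp2. A gene was taken where a probe set carried its symbol and no other, and the brightest probe set over the 11 arrays stood for it. This found 35 of the 36 members among 18194 genes: 19 cytosolic, 14 mitochondrial and both scaffolds. Dars, for aspartate, was not analysed here, and Mars was found under its newer symbol Mars1.

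The study set wild-type against crbn-/- T cells, both on C57BL6. Crbn encodes cereblon, which picks the proteins that a cullin ubiquitin ligase marks and is the protein that thalidomide binds. The cells came from spleens of female mice aged 3 to 4 months and were isolated by negative bead selection, and RNA of each sample was measured on 1 Affymetrix array. Naive cells were compared with cells stimulated for 12 h with plate-bound anti-CD3 at 5 µg/ml and soluble anti-CD28 at 1 µg/ml, called activated here. There were 3 wild-type naive, 2 wild-type activated, 3 knockout naive and 3 knockout activated arrays, which the labels call biological replicates. No unstimulated cultures are among the labelled groups, so that stimulation and culture cannot be told apart. The labels do not say how the crbn allele was made.

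Each aminoacyl-tRNA synthetase joins an amino acid to the transfer RNAs that carry it, spending ATP, and the charged tRNA then delivers that amino acid to the ribosome. The cytosol and the mitochondrion each need a full set of charged tRNAs, and most mitochondrial enzymes are encoded by nuclear genes of their own. In animals a number of cytosolic enzymes sit in a multi-synthetase complex built on the AIMP scaffold proteins. T cells leaving the resting state enlarge and make much more protein before they divide, and the factor ATF4 is known to drive many cytosolic synthetase genes when amino acids are short.

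The arrays could be compared as deposited. Array medians of the log2 values lay between 5.84 and 5.89. Crbn stood between 10.06 and 10.21 in wild-type naive arrays, 9.47 and 9.71 in wild-type activated arrays, 8.91 and 9.07 in knockout naive arrays, and 8.58 and 8.77 in knockout activated arrays, so the genotypes did not overlap. The sources used here do not say whether its probe set lies within the deleted stretch. The T cell marker Cd3e read between 11.14 and 11.97 on the 11 arrays. The 7 measured T cell markers summed, on the linear scale, to between 29015 and 32310 in naive and between 16479 and 18911 in activated arrays. Other cell types were also detected. The summed level of 4 measured NK cell markers ran from 765 to 1048 in naive and from 1357 to 1933 in activated arrays. Within that list 1 marker rose and 2 fell in wild-type activation, and 1 rose and 3 fell in knockout activation. The median differences of the 4 were -0.56 and -0.71, so the higher sum does not describe most of them. The sum of 12 macrophage and monocyte markers ran from 1824 to 2576 in naive and from 982 to 1243 in activated arrays. That of 7 erythroid markers ran from 800 to 8353 and from 590 to 1124. The sum of 8 measured B cell markers was lower after activation and did not overlap between genotypes: 12061 to 13372 in wild-type naive, 13551 to 15703 in knockout naive, 3982 to 5289 in wild-type activated and 5379 to 6581 in knockout activated arrays. The part of these cells in the activation differences was not tested. In such bulk RNA, fewer cells of a type and less RNA per cell cannot be told apart.

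Cytosolic synthetase genes rose with activation in both genotypes. In wild-type cells 18 of the 19 measured members rose and 0 fell, against 20.2% of all genes that rose and 20.9% that fell (limma, adjusted p under 0.05). The median difference of the 19 between activated and naive cells was 1.08 on the log2 scale, against 0.06 for all genes, with a range from 0.07 to 1.45. In knockout cells 18 of 19 again rose and 0 fell, against 20.7% of genes that rose and 22.4% that fell, and the median difference was 1.25 with a range from 0.06 to 1.71, against -0.03 for all genes. The same 18 members rose in both genotypes, and Qars was the exception in both. A rise of at least 2-fold was met by 12 of the 19 in wild-type and by 14 in knockout cells. Of all 18194 genes, 673 met it in wild-type and 1096 in knockout cells, so that count was also larger in knockout cells. By contrast, of the 14 mitochondrial members 4 rose and 2 fell in wild-type and 6 rose and 2 fell in knockout cells. The plot of activation differences for every member shows this division between the compartments.

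**Figure D1:**
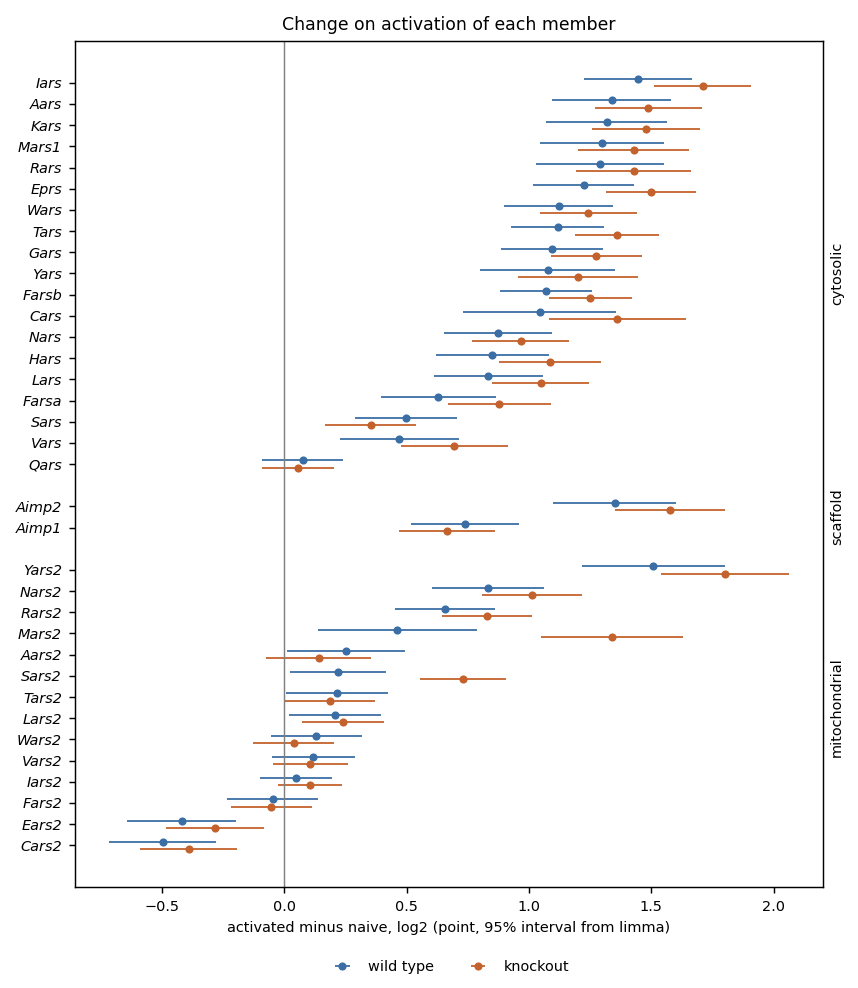
Activated minus naive difference in log2 units for each of the 35 measured members, with the 95% interval of the limma fit, in wild-type and knockout cells. The cytosolic members other than Qars lie right of 0 in both genotypes, while most mitochondrial members lie near 0 and Yars2 stands among the highest.

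Iars, which charges isoleucine, had the largest difference among cytosolic members in wild-type cells. Its log2 values were 9.90, 9.64 and 9.50 in wild-type naive arrays and 11.13 and 11.12 in wild-type activated arrays. Knockout naive arrays read 9.56, 9.51 and 9.51 for Iars, and knockout activated arrays 11.29, 11.19 and 11.24. The activated arrays lay well above the naive arrays in both genotypes, and the first wild-type naive array was the highest of the naive ones. The difference was 1.45 (SE 0.102, 2.73-fold, limma adjusted p = 1.83e-07) in wild-type and 1.71 (SE 0.0912, 3.27-fold, adjusted p = 7.41e-09) in knockout cells. Aars, for alanine, read 9.11, 8.85 and 8.80 in wild-type naive and 10.09 and 10.43 in wild-type activated arrays. Its knockout values were 8.89, 8.77 and 8.75 in naive and 10.29, 10.30 and 10.28 in activated arrays. The 3 knockout activated arrays were nearly equal and lay between the 2 wild-type activated ones. Aars rose by 1.34 (SE 0.112, 2.53-fold, adjusted p = 7.61e-07) in wild-type and 1.49 (2.81-fold, adjusted p = 5.62e-08) in knockout cells.

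Kars, for lysine, Mars1, for methionine, Rars, for arginine, and Eprs, the fused enzyme for glutamate and proline, followed. Kars, like Gars, also encodes the mitochondrial enzyme for its amino acid, and both are counted here as cytosolic. Kars read 10.41, 10.13 and 10.03 in wild-type naive, 11.37 and 11.65 in wild-type activated, 10.12, 10.03 and 10.01 in knockout naive, and 11.48, 11.56 and 11.55 in knockout activated arrays. Its naive and activated arrays were far apart in both genotypes, with differences of 1.32 (SE 0.114, 2.49-fold, limma adjusted p = 9.77e-07) and 1.48 (2.78-fold, adjusted p = 6.78e-08). Mars1 read 9.95, 9.70 and 9.60 in wild-type naive, 10.86 and 11.24 in wild-type activated, 9.57, 9.60 and 9.71 in knockout naive, and 11.07, 11.05 and 11.04 in knockout activated arrays. The 2 wild-type activated arrays of Mars1 differed from each other more than the 3 knockout ones did, and its differences were 1.30 (SE 0.117, 2.46-fold, adjusted p = 1.38e-06) and 1.43 (SE 0.105, 2.69-fold, adjusted p = 1.17e-07). Rars read 9.97, 9.68 and 9.63, then 10.88 and 11.22, in wild-type naive and activated arrays, and 9.74, 9.70 and 9.52, then 11.10, 11.03 and 11.12, in the knockout ones. Its differences were 1.29 (SE 0.121, 2.45-fold, adjusted p = 1.95e-06) and 1.43 (SE 0.108, 2.69-fold, adjusted p = 1.6e-07), with no overlap of naive and activated arrays. Eprs read 10.29, 10.11 and 9.98, then 11.27 and 11.43, in wild-type naive and activated arrays, and 10.01, 9.97 and 9.88, then 11.49, 11.42 and 11.44, in the knockout ones. It rose by 1.22 (SE 0.0951, 2.34-fold, adjusted p = 4.09e-07) in wild-type and by 1.50 (SE 0.0851, 2.83-fold, adjusted p = 1.25e-08) in knockout cells, and its activated arrays all lay above its naive ones.

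The other 12 cytosolic members that rose spread widely. Tars, for threonine, Wars, for tryptophan, Gars, for glycine, Yars, for tyrosine, Farsb, the beta subunit of the phenylalanine enzyme, and Cars, for cysteine, rose in wild-type cells by between 1.04 (Cars) and 1.12 (Tars and Wars). In knockout cells Cars and Tars both rose by 1.36, Gars by 1.28, Farsb by 1.25, Wars by 1.24 and Yars by 1.20. Nars, for asparagine, Hars, for histidine, and Lars, for leucine, rose by 0.87, 0.85 and 0.83 in wild-type and by 0.97, 1.09 and 1.05 in knockout cells. Farsa, the alpha subunit of the phenylalanine enzyme, rose by 0.63 and 0.88. The smallest rises that passed the test were those of Sars, for serine, at 0.50 and 0.35 (limma adjusted p = 0.000938 and 0.00421), and Vars, for valine, at 0.47 and 0.70 (adjusted p = 0.00415 and 6.28e-05). Both structural classes of the enzymes took part: 8 of 9 class I members and 9 of 9 class II members rose in each genotype, with class I medians of 1.08 and 1.24 for the wild type and the knockout and class II medians of 1.07 and 1.25.

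Qars, which charges glutamine, was the cytosolic member that did not pass the test, and it was singled out after its values were seen. It read 10.79 on each of the 3 wild-type naive arrays and 10.76 and 10.96 on the wild-type activated arrays. Knockout naive arrays read 10.77, 10.70 and 10.74 for Qars, and knockout activated arrays 10.78, 10.83 and 10.76. Naive and activated arrays overlapped in both genotypes. The difference was 0.07 (SE 0.0757, 95% interval -0.09 to 0.24, limma adjusted p = 0.469) in wild-type and 0.06 (SE 0.0677, interval -0.09 to 0.20, adjusted p = 0.572) in knockout cells. Of the 3 other Qars probe sets, a pair of bright ones differed by 0.11 and 0.03 in wild-type cells. A dim one, with a mean of 5.11 over the arrays, gave 0.09 in wild-type cells and 0.52 in knockout cells (adjusted p = 0.0137 over all probe sets). Over all members, 23 of the 35 had more than 1 probe set, and of the 37 others 32 had the same sign as the brightest in wild-type and 31 in knockout activation. In 1 case both passed with opposite signs in wild-type cells: another probe set of Farsb fell by 0.51 (adjusted p = 0.000182) where the brightest rose.

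Both scaffold genes rose. Aimp2 read 9.67, 9.35 and 9.35, then 10.63 and 10.98, in wild-type naive and activated arrays, and 9.28, 9.38 and 9.29, then 10.91, 10.91 and 10.85, in the knockout ones. It rose by 1.35 (SE 0.116, 2.55-fold, limma adjusted p = 9.44e-07) and 1.58 (SE 0.104, 2.98-fold, adjusted p = 4.66e-08). Aimp1, whose product can also be released as a cytokine, read 10.40, 10.27 and 10.32, then 10.91 and 11.23, in wild-type arrays, and 10.50, 10.38 and 10.27, then 11.06, 11.10 and 10.99, in the knockout ones. Its rise was smaller, at 0.74 (SE 0.102, 1.67-fold, adjusted p = 5.64e-05) and 0.67 (SE 0.0911, 1.59-fold, adjusted p = 3.81e-05), and naive and activated arrays did not overlap for either scaffold. Of the 9 measured members that belong to the multi-synthetase complex, 8 rose in each genotype and Qars did not pass, with medians of 1.29 and 1.43. Of the 12 cytosolic members outside it all rose, with medians of 1.06 and 1.22. The 12 members listed from general knowledge as ATF4 targets all rose, with medians of 1.11 and 1.32, and of the 7 cytosolic members outside that list 6 rose, with medians of 0.85 and 1.09. The differences between these subgroups were not tested.

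**Figure D2:**
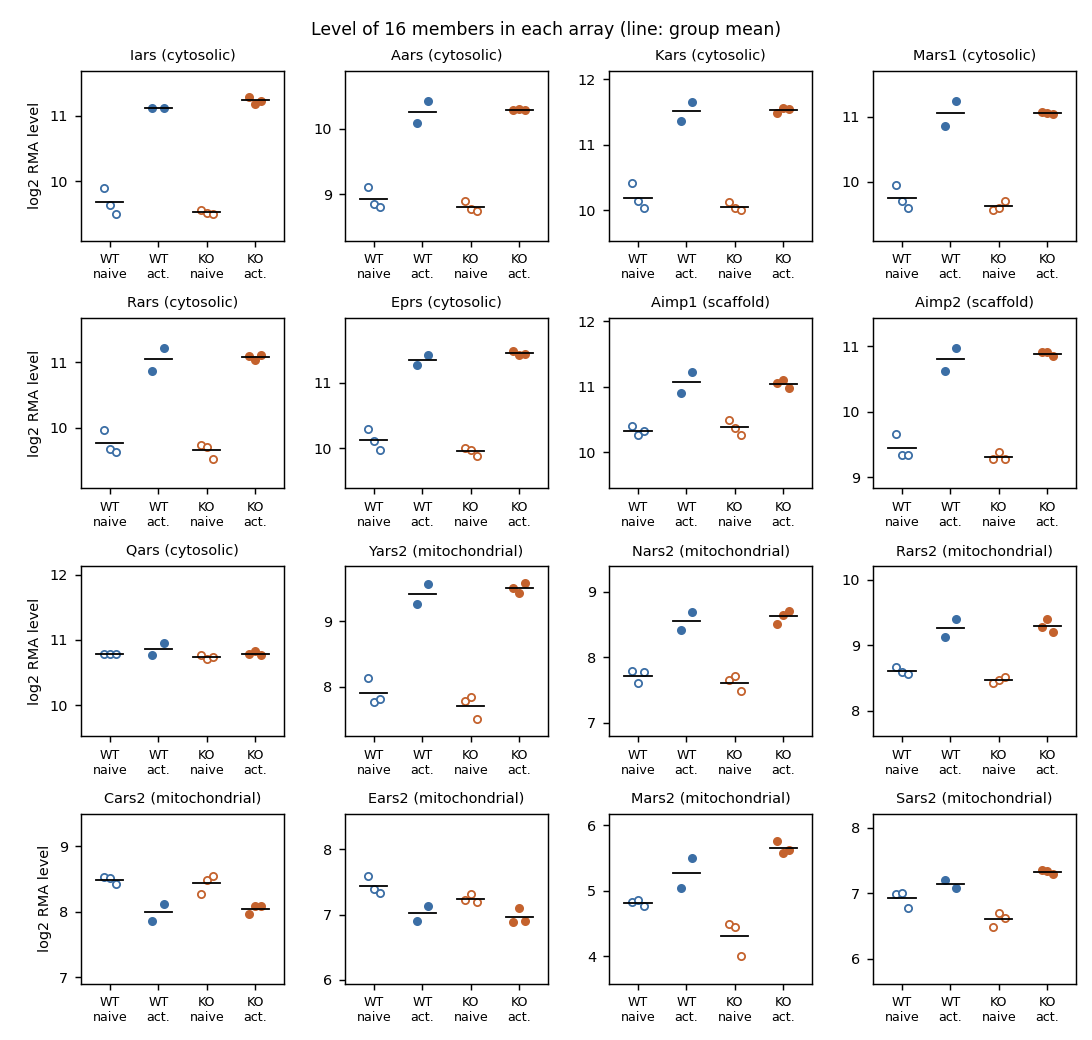
Log2 value on each of the 11 arrays for members described in full other than Lars2, Wars and Farsa, each panel spanning the same number of log2 units so that changes can be compared by height. Cytosolic members other than Qars, both scaffolds, Yars2, Nars2, Rars2 and Mars2 step up with activation in both genotypes. The Qars arrays overlap, Cars2 and Ears2 step down, and Sars2 passed as higher in knockout cells only.

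Promoter sequences, taken from RefSeq with the build GRCm38.p6, were used for 27 of the 35 measured members. Cars, Hars, Lars, Nars, Rars, Vars and Wars had none there. Each sequence reached from 250 bases before to 50 after the start that this source sets for the gene. For Yars that start lies inside the annotated gene, which begins at chr4:129189734 (plus strand), and so does its match given below. Because the cytosolic members rose together, the promoters were searched on both strands for TGATGNAA, the composite element that ATF4 binds with a C/EBP partner. It occurred in 4 of 11 cytosolic promoters, those of Gars, Iars, Tars and Yars, in 0 of 14 mitochondrial ones and in 0 of 2 scaffold ones, against 3.97% of all 32851 promoters. The 30 bases around each match are given on the gene's own strand, 5′ to 3′, with the match or its reverse complement in capitals; they lie at chr6:55037960-55037989 (plus strand) for Gars, chr13:49682126-49682155 (plus) for Iars, chr15:11399655-11399684 (minus) for Tars and chr4:129189895-129189924 (plus) for Yars.
Gars: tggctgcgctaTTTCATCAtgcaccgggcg
Iars: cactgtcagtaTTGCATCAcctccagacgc
Tars: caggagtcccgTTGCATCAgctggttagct
Yars: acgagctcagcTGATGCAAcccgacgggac

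The E-box CACGTG, which MYC and related factors bind, occurred in 3 of 11 cytosolic promoters (Farsb, Iars and Tars) and in 1 of 14 mitochondrial promoters (Ears2), against 7.15% of all. CCAAT occurred in 6 of 11, 6 of 14 and 2 of 2 cytosolic, mitochondrial and scaffold promoters, against 37.41% of all, and TATAAA in 1, 2 and 0, against 13.62%. Motifs named for NRF1, YY1 and the interferon response were also looked at and are not described. The sequences upstream of the start are shown for the members that departed from their compartments, Qars (chr9:108507755-108508004, plus strand) and Yars2 (chr16:16302715-16302964, plus), where neither TGATGNAA nor CACGTG was found in this stretch. The promoters of Eprs, Farsa, Kars, Mars1 and Sars, which rose, held neither motif as well. Nor did any mitochondrial promoter other than that of Ears2, which fell and held CACGTG. Lack of these motifs was therefore not particular to Qars and Yars2. A match is a description of the letters, and binding was not measured.
Qars: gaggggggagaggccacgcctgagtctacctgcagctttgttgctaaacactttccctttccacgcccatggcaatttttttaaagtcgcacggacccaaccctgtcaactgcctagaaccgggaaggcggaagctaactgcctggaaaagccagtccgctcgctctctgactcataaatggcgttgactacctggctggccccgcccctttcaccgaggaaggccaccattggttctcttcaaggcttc
Yars2: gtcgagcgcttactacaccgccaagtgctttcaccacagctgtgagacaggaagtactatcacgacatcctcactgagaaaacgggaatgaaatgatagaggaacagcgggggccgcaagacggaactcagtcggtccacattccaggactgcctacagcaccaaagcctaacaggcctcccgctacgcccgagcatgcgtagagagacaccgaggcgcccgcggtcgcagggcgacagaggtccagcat

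Among the mitochondrial members the median difference was 0.21 in wild-type cells, with a range from -0.50 to 1.51, and 0.16 in knockout cells, from -0.39 to 1.80. Yars2, Nars2, Rars2 and Mars2 rose in both genotypes (Mars2 from near background, as described further on), and Cars2 and Ears2 fell in both. Sars2 and Lars2 passed in knockout cells and not in wild-type cells, and the interaction passed for neither. In wild-type cells both passed when the deposited, already normalized values were quantile normalized once more (limma adjusted p = 0.00879 for Sars2 and 0.00601 for Lars2). Both also passed among genes above the median level (0.0414 and 0.041). Aars2, Fars2, Iars2, Tars2, Vars2 and Wars2 passed in neither, with differences from -0.05 (Fars2 in both genotypes) to 0.25 (Aars2 in wild-type cells). For Tars2 and Vars2 the other probe set did pass in knockout cells. It rose there by 0.318 for Tars2 (limma adjusted p = 0.00571 over all probe sets) and by 0.325 for Vars2 (adjusted p = 0.00236). In wild-type cells these probe sets differed by 0.14 and 0.10 and did not pass. The wild-type count rested on the arrays and on the scaling: it was 9 higher and 2 lower after quantile normalization, 7 and 1 without the first wild-type activated array, 3 and 2 without the second or without the third wild-type naive array.

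Yars2, the mitochondrial tyrosine enzyme, had the largest difference of all 35 members in both genotypes. Its wild-type values were 8.14, 7.77 and 7.82 in naive and 9.26 and 9.57 in activated arrays. In knockout cells it read 7.79, 7.84 and 7.50, then 9.51, 9.44 and 9.59. The groups lay more than 1 log2 unit apart, with differences of 1.51 (SE 0.134, 2.85-fold, limma adjusted p = 1.23e-06) in wild-type and 1.80 (SE 0.12, 3.49-fold, adjusted p = 5.04e-08) in knockout cells. Nars2, for asparagine, read 7.79, 7.61 and 7.77, then 8.42 and 8.69, in wild-type arrays, and 7.65, 7.71 and 7.48, then 8.51, 8.65 and 8.71, in the knockout ones. It rose by 0.83 (SE 0.106, 1.78-fold, adjusted p = 2.68e-05) and 1.01 (SE 0.0944, 2.02-fold, adjusted p = 1.03e-06), and its naive and activated arrays did not overlap. With the mean of its probe sets the rise was 0.44 and 0.55. Its other probe set, with a mean of 3.26, lay below the lowest lower quartile of an array, 4.57, on all 11 arrays. Rars2, for arginine, read 8.67, 8.60 and 8.56, then 9.12 and 9.40, in wild-type arrays, and 8.42, 8.47 and 8.52, then 9.28, 9.40 and 9.21, in the knockout ones. Its groups did not overlap either, and it rose by 0.66 (SE 0.0939, 1.58-fold, adjusted p = 7.85e-05) and 0.83 (SE 0.084, 1.78-fold, adjusted p = 2.3e-06).

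The 2 members that fell charge cysteine and glutamate. Cars2 read 8.54, 8.51 and 8.42, then 7.86 and 8.12, in wild-type naive and activated arrays, and 8.28, 8.49 and 8.55, then 7.97, 8.08 and 8.08, in the knockout ones. Activated arrays lay below naive ones in both genotypes, with differences of -0.50 (SE 0.101, 1.41-fold lower, limma adjusted p = 0.00136) and -0.39 (SE 0.0907, 1.31-fold lower, adjusted p = 0.00291), and -0.30 and -0.27 with the mean of its probe sets. Ears2 read 7.59, 7.39 and 7.34, then 6.90 and 7.14, in wild-type arrays, and 7.22, 7.31 and 7.19, then 6.89, 7.09 and 6.90, in the knockout ones. Its difference was smaller, at -0.42 (SE 0.103, 1.34-fold lower, adjusted p = 0.0051) and -0.28 (SE 0.0925, 1.22-fold lower, adjusted p = 0.0244). With the mean of its probe sets Ears2 no longer passed, at -0.16 (adjusted p = 0.0613) and -0.14 (adjusted p = 0.072). Lars2, for leucine, read 8.46, 8.37 and 8.30, then 8.49 and 8.68, in wild-type arrays, and 8.37, 8.30 and 8.23, then 8.58, 8.58 and 8.46, in the knockout ones. It differed by 0.21 (adjusted p = 0.0731) in wild-type and rose by 0.24 (SE 0.0772, 1.18-fold, adjusted p = 0.0212) in knockout cells. That call was lost with the mean of its probe sets (0.10, adjusted p = 0.296). A dim probe set in that mean, at 3.92, lay below 4.57, the lowest lower quartile of an array, on all 11 arrays. The remaining one, with a mean of 6.75, differed by -0.03 in knockout cells (limma adjusted p = 0.776 over all probe sets).

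Enzymes for the same amino acid in the 2 compartments were then set side by side within each array, as the difference of their log2 values, which compares their changes and not their levels. Of 15 such pairs, with both phenylalanine subunits set against Fars2, the cytosolic change was the larger in 14 in wild-type and in 12 in knockout cells. In 11 pairs it was larger in both genotypes with no overlap of naive and activated arrays in either. Lack of overlap was common: of all 18194 single genes, 10363 showed none in wild-type and 9544 in knockout activation, in either direction. The share among pairs of genes at large was not computed. The widest gaps were between Eprs and Ears2, at 1.64 in wild-type and 1.78 in knockout cells, Cars and Cars2, at 1.54 and 1.75, and Iars and Iars2, at 1.40 and 1.61. Yars and Yars2 ran the other way in both genotypes, at -0.43 and -0.60. Nars and Nars2 changed nearly alike, at 0.04 and -0.05, with overlapping arrays. Sars and Sars2 gave 0.28 in wild-type cells, with overlap, and -0.38 in knockout cells, and Mars1 and Mars2 gave 0.09 in knockout cells, with overlap. Signal of Mars2 above background is not shown in knockout naive arrays, so that its rise there may be understated, and with it this pair's place among the 12.

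**Figure D3:**
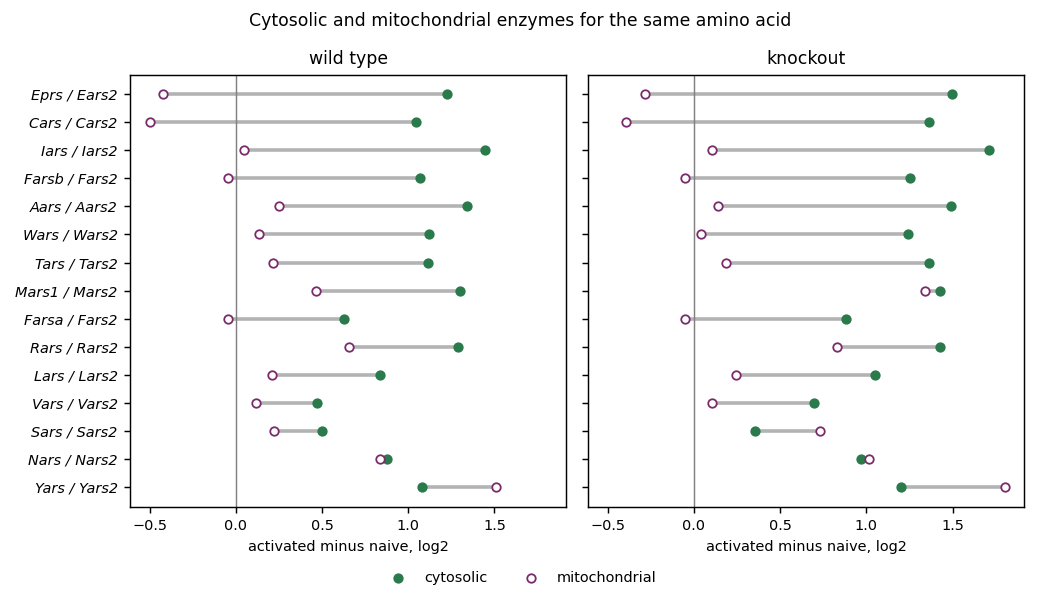
Activated minus naive difference in log2 units of the cytosolic (filled) and mitochondrial (open) enzyme of each of 15 pairs, in wild-type and knockout cells on the same scale. The filled point lies to the right in most pairs, and Yars and Yars2 are in the reverse order in both panels.

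The cytosolic shift was then read array by array. The median distance of the 19 members from their own naive mean was 0.96 and 1.23 on the wild-type activated arrays and 1.31, 1.25 and 1.24 on the knockout activated arrays. The mitochondrial medians on the same arrays were 0.09 and 0.26, then 0.11, 0.22 and 0.16. Among naive arrays the cytosolic medians were 0.16, -0.05 and -0.13 for the wild type and 0.05, -0.02 and -0.02 for the knockout. The first wild-type naive array thus stood above the other two, with 18 of 19 cytosolic members above their naive mean, against 2 and 1. The summed level of 7 measured erythroid markers took the same order in these arrays, at 8353, 4108 and 2178, and was 3064, 1120 and 800 in the knockout naive arrays. Its part in the members' levels was not tested.

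**Figure D4:**
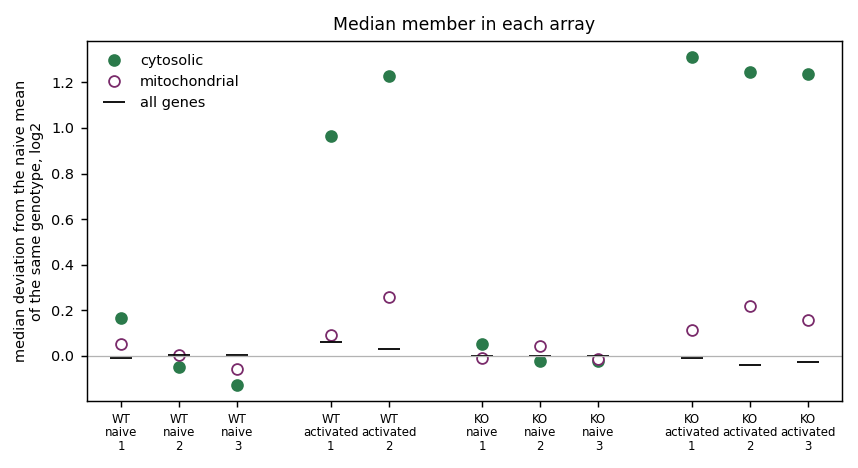
Median over the cytosolic and over the mitochondrial members of the log2 distance from the naive mean of the same genotype, for each of the 11 arrays by group. Cytosolic medians stand near 1 or above in the activated arrays of both genotypes and near 0 in the naive ones, and mitochondrial medians stay below 0.3.

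Knockout and wild-type cells were compared within each state, and no member passed the test. In naive cells 0 of 35 passed with limma, against 0.148% of all genes. An unadjusted p under 0.05 was met by 5 of the 35 members and by 2642 of all 18194 genes. The knockout mean was below the wild-type mean in 18 of 19 cytosolic members, 13 of 14 mitochondrial members and 1 of 2 scaffolds, with a median difference of -0.12 for the cytosolic and -0.09 for the mitochondrial members, against 0.01 for all genes. The 95% intervals of single members reached from -0.51 to 0.29 among the cytosolic and from -0.79 to 0.28 among the mitochondrial ones. Without the first wild-type naive array, the one highest in erythroid markers, the cytosolic median was -0.04. All 8 measured B cell markers were higher in knockout naive cells (median difference 0.39, 0 past the threshold), and 1 of 4 NK cell markers passed there, Klra8 at 0.94 (SE 0.157, limma adjusted p = 0.0384). The part of these cells in the members' naive differences was not tested. Members share their arrays, and their number does not stand for independent observations.

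In activated cells 0 of 35 members passed, against 0.0605% of all genes. An unadjusted p under 0.05 was met by 1 of the 35 and by 1256 of all 18194 genes. The knockout mean was the higher one in 21 members, and the medians were 0.02 for the cytosolic and -0.01 for the mitochondrial members, against -0.02 for all genes. With 2 wild-type activated arrays that differed from each other, the cytosolic median was -0.12 without the first and 0.17 without the second, and the mitochondrial one -0.10 and 0.07. Intervals reached from -0.35 to 0.40 among the cytosolic and from -0.30 to 0.70 among the mitochondrial members. On the mean of both states 0 of 35 passed, against 0.104% of all genes, and 1 had an unadjusted p under 0.05, against 1298 of all 18194 genes. The smallest p there belonged to Wars, which read 8.61, 8.38 and 8.29 in wild-type naive, 8.24, 8.07 and 8.22 in knockout naive, 9.47 and 9.63 in wild-type activated, and 9.34, 9.49 and 9.44 in knockout activated arrays. The genotypes did not overlap in naive cells and overlapped in activated ones, with a mean difference of -0.19 (SE 0.0689, 95% interval -0.34 to -0.04, limma adjusted p = 0.569). Farsa came next, at 9.17, 9.0 and 8.97 in wild-type naive, 8.86, 8.75 and 8.74 in knockout naive, 9.50 and 9.86 in wild-type activated, and 9.74, 9.68 and 9.57 in knockout activated arrays. It overlapped in the same way and differed by -0.14 (SE 0.0723, adjusted p = 0.753), or by -0.02 with the mean of its probe sets.

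The size of the activation difference was compared between genotypes by the interaction. The signed difference was higher in knockout cells in 27 of the 35 members, 17 of them cytosolic, with a median interaction of 0.15, against -0.03 for all genes. Regardless of sign, it was larger in knockout cells in 26 members, since Cars2 and Ears2 fell by less there and Fars2 had a slightly larger negative value. None passed the test, against 0% of all genes. An unadjusted p under 0.05 was met by 2 of the 35 members, Mars2 and Sars2, and by 2515 of all 18194 genes. The intervals of cytosolic members reached from -0.43 to 0.74, and differences within these limits were not resolved with these arrays. This comparison shares its arrays with those above.

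Mars2, for mitochondrial methionine, was dim: its 3 knockout naive values lay below 4.57, the lowest lower quartile of an array, and signal above background is not shown there. It read 4.82, 4.85 and 4.77 in wild-type naive, 5.05 and 5.51 in wild-type activated, 4.50, 4.44 and 4.00 in knockout naive, and 5.76, 5.58 and 5.62 in knockout activated arrays. The knockout arrays were the lowest when naive and the highest when activated, without overlap. Its activation difference was 0.46 (SE 0.15, 1.38-fold, limma adjusted p = 0.0249) in wild-type cells, a call that was lost without the second wild-type activated array (0.23, adjusted p = 0.301), and 1.34 (SE 0.134, 2.53-fold, adjusted p = 2.03e-06) in knockout cells. The interaction was 0.88 (SE 0.201, 95% interval 0.44 to 1.31, limma adjusted p = 0.206). With the mean of its probe sets the activation difference was 0.29 in wild-type and 0.80 in knockout cells and the interaction 0.51. The other probe set of Mars2, with a mean of 3.48, lay below 4.57 on all 11 arrays. Between genotypes Mars2 differed by -0.50 in naive (interval -0.79 to -0.21, adjusted p = 0.161) and by 0.38 in activated cells (interval 0.05 to 0.70, adjusted p = 0.645).

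Sars2, for mitochondrial serine, read 6.99, 7.00 and 6.78 in wild-type naive, 7.20 and 7.09 in wild-type activated, 6.48, 6.70 and 6.62 in knockout naive, and 7.35, 7.34 and 7.30 in knockout activated arrays. The order of the groups was that of Mars2, again without overlap. It differed by 0.22 (SE 0.091, limma adjusted p = 0.0714) with activation in wild-type cells and rose by 0.73 (SE 0.0814, 1.66-fold, adjusted p = 5.57e-06) in knockout cells. The interaction was 0.51 (SE 0.122, adjusted p = 0.21), and the genotype difference was -0.32 in naive (95% interval -0.50 to -0.15, adjusted p = 0.148) and 0.19 in activated cells (adjusted p = 0.748). With array quality weights, where 6.8% of all genes passed, both passed in naive cells, Sars2 at -0.36 (adjusted p = 0.015) and Mars2 at -0.47 (adjusted p = 0.0207), and without the third wild-type naive array, where 1.87% of all genes passed, Sars2 passed at -0.40 (adjusted p = 0.0405). The share of members that passed, 5.71% and 2.86%, was near that of all genes in both settings.

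**Figure D5:**
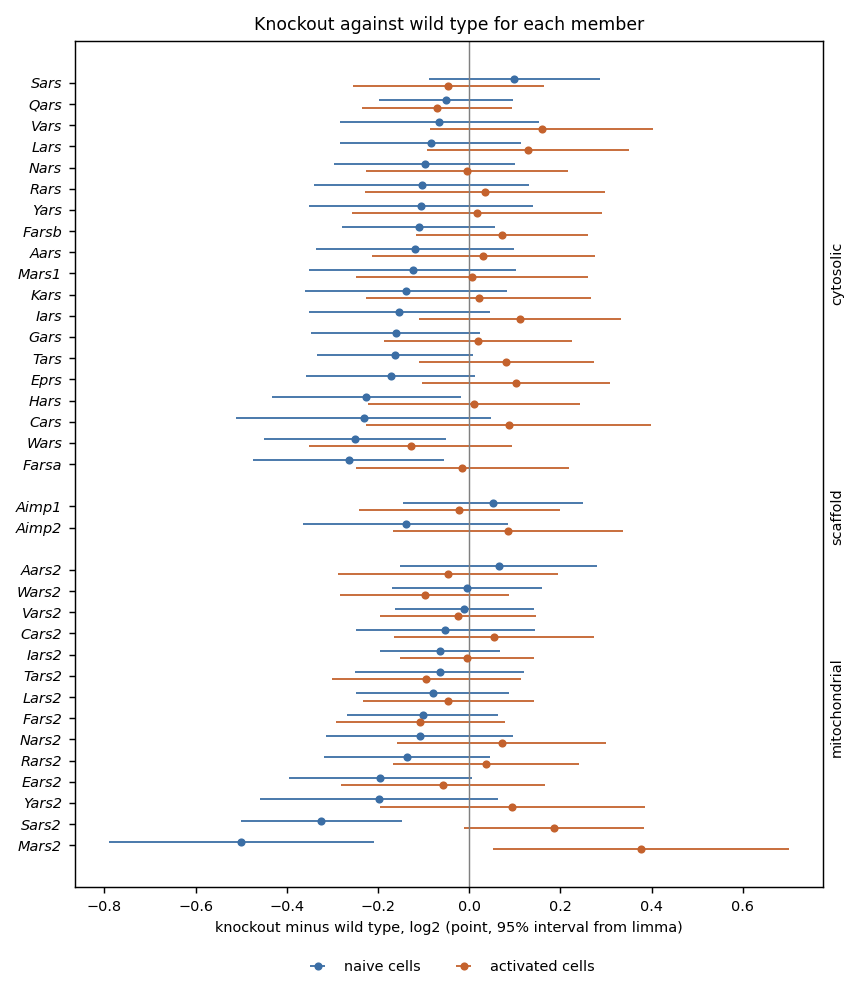
Knockout minus wild-type difference in log2 units for each of the 35 measured members in naive and activated cells, with the 95% interval of the limma fit. Most naive differences lie slightly below 0, the activated ones lie on both sides of it, and Mars2 and Sars2 lie lowest in naive cells.

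Genes around the synthetases were read from lists of related functions, each with its count of rises and falls, to be read against the 20.2% of all genes that rose and 20.9% that fell in wild-type cells and the 20.7% and 22.4% in knockout cells. Genes are named by the size of their wild-type difference. Of 17 measured genes of tRNA maturation and export, 14 rose and 2 fell in wild-type cells and 15 rose and 2 fell in knockout cells, with medians of 0.71 and 0.79. The 4 of largest wild-type difference were Pop1 (1.52 and 1.90) and Rpp40 (1.36 and 1.79), subunits of RNase P, Xpot (1.23 and 1.56), the exporter of tRNA from the nucleus, and Elac2 (1.19 and 1.31), which trims the 3′ ends. In knockout cells Trnt1, which adds the CCA end and was named after its values were seen, rose by 1.51, more than Elac2, and in wild-type cells by 0.95. Of 20 measured genes of RNA polymerase III, which transcribes tRNA genes, 10 rose and 3 fell in wild-type cells and 13 rose and 3 fell in knockout cells. The paralogous subunits Polr3g (1.32 and 1.79) and Polr3gl (-1.70 and -1.68) moved in opposite directions, and Polr3k (1.21 and 1.57) and Gtf3c4 (0.89 and 1.03) rose. Of 14 other genes of tRNA charging and editing, 6 rose and 1 fell in wild-type cells and 7 rose and 2 fell in knockout cells. Eef1e1, the third scaffold of the multi-synthetase complex, had the largest rise in both genotypes (1.49 and 1.78). In wild-type cells it was followed by Dtd1 (0.60 and 0.61), which clears D-amino acids from tRNA, Pars2 (0.60 and 0.59), for mitochondrial proline, and Gatc (0.57 and 0.51), a subunit of the mitochondrial amidotransferase that makes Gln-tRNA. In knockout cells Aarsd1, an editing protein named after its values were seen, came second at 0.79 (0.46 in wild-type cells).

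Translation elongation factors were listed for each compartment. Of 4 mitochondrial factors 3 rose in wild-type and 4 in knockout cells, with Gfm1 at 1.12 and 1.27, Tsfm at 1.02 and 1.21, and Tufm at 0.88 and 0.96. Of 6 measured cytosolic factors 2 rose and 0 fell in wild-type cells and 3 rose and 1 fell in knockout cells, led by Eif5a (0.66 and 0.76) and Eef1d (0.58 and 0.43). Of 9 genes that sense uncharged tRNA or belong to ATF4 signalling, 3 rose and 2 fell in wild-type and 5 rose and 2 fell in knockout cells. Among them Chac1, which degrades glutathione, rose by 0.77 and 0.74, Gcn1 by 0.46 and 0.51, and Eif2ak4, the kinase GCN2 that binds uncharged tRNA, by 0.33 and 0.66, while Ddit3, which encodes the factor CHOP, fell by 0.62 and 0.71. Asns, which makes asparagine, did not pass in wild-type cells and was named after its values were seen. It read 8.98, 7.92 and 6.73 in wild-type naive, 8.51 and 8.84 in wild-type activated, 7.42, 6.28 and 5.71 in knockout naive, and 9.09, 8.90 and 8.94 in knockout activated arrays. Its naive arrays spread widely in both genotypes, in the order of the erythroid sums given above for these arrays. The activation difference was 0.80 (SE 0.528, limma adjusted p = 0.256) in wild-type and 2.51 (SE 0.472, adjusted p = 6e-04) in knockout cells, and the interaction of 1.70 did not pass (95% interval 0.17 to 3.24, adjusted p = 0.327).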

How the data were processed

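RNA of 11 splenic T cell samples was hybridised to one-colour Affymetrix arrays. GCOS, RMA and Partek made the values, per the submitters' processing notes; the sources used here give no versions of them. For 45101 probe sets the log2 values were taken as deposited. Symbols came from the platform's annotation: 34958 probe sets carried 1 symbol, 932 several and 9211 none. The brightest probe set of each symbol gave 18194 genes. Differences were fitted with limma 3.58.1 in R 4.3.3, with 4 group means over all arrays, moderated variances (prior degrees of freedom 5.46, residual 7) and Benjamini-Hochberg adjustment over all genes, and an adjusted p under 0.05 passed. The fit was tested on simulated data. The median SE was 0.0987 for wild-type and 0.0882 for knockout activation, a precision limited by how few arrays there are. P-values measure the spread between these samples. The members, gene lists, motifs and tests were chosen with earlier results of these data known, and no set test was run. The promoter of Aars is not reported here. Full values are given for the 6 cytosolic and 6 mitochondrial members of largest difference past the threshold in wild-type activation, both scaffolds and the 2 members of smallest p in each genotype comparison; Lars2 and Qars were added for their calls. Other lists show up to 4 genes chosen by the same measure. Alternatives changed the probe set rule, filter, normalization, variance model, arrays in the fit and replicate block, and left out each array. For normalization, the deposited RMA values were quantile normalized once more, or each array was centred on its median. Plots used matplotlib 3.10.9 and pandas 2.3.3 under Python 3.11.15.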

Additional observations from a re-analysis of the deposited data

How the results depend on the processing

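Across up to 20 alternative settings, counts of members stayed within 1.5 times of the value reported and medians within the spread between arrays in 269 of 278 comparisons with an alternative, and 9 moved further. Many of these comparisons could not move a median. The medians rest on differences of group means, which stay the same when an array of an uncompared group is left out or the variance model is changed. Medians near 0 changed sign within that spread: the mitochondrial median between activated genotypes ran from -0.10 to 0.07 and changed sign in 4 settings, while the cytosolic one between naive genotypes ran from -0.18 to -0.04. The count of members past the threshold ran from 24 to 31 in wild-type and from 26 to 29 in knockout activation, and cytosolic rises from 17 to 18 and at 18. The cytosolic median in knockout activation was 1.20 with the mean of all probe sets of a gene and 1.17 after quantile normalization, and the mitochondrial median between naive genotypes was -0.032 after quantile normalization; the cause was not tested. Array quality weights gave 2 members past the threshold between naive genotypes, 5.71% of members against 6.8% of all genes. With single arrays left out, that count was 0 to 1, the mitochondrial median was 0.093 to 0.26 in wild-type and 0.14 to 0.21 in knockout activation, and the cytosolic median between activated genotypes was -0.12 to 0.17. Leaving out a wild-type activated array leaves 1, assumed to vary like the other groups. With the replicate block, 27 members passed in wild-type and 28 in knockout activation and 0 between genotypes or in the interaction. Of all genes, 7576 and 7907 passed in activation with the block. Between naive genotypes 277 of all genes passed with it, against 27 without it. The numbers were not taken to pair samples, since the labels do not say that they do. Deviations of 15 same-numbered pairs correlated between -0.30 and 0.39, with 7 of the 15 over 0.1. Those of 30 other pairs correlated between -0.35 and 0.30, with 6 of the 30 over 0.1. Between wild-type and knockout naive arrays, the same-numbered pairs gave 0.39, 0.02 and 0.31 for numbers 1, 2 and 3. Pairs of these arrays with unlike numbers ran from -0.35 to 0.12. The naive arrays may thus share variation by number, which the main fit does not model. Single named members changed call in 23 of 831 comparisons, 15 lost and 8 gained, with 0 reversed; these concerned Mars2, Ears2, Lars2 and Sars2. The wild-type activation call was gained by Lars2 and Sars2 after quantile normalization (adjusted p = 0.00601 and 0.00879) and above the median level (0.041 and 0.0414), and by Lars2 without the first activated array (0.0313). The filter on genes above the median level drops Mars2. Ears2 in knockout activation was lost in 5 settings (adjusted p 0.058 to 0.0893), and in wild-type activation also without the first activated array (-0.30, adjusted p = 0.0733). Mars2 in wild-type activation was also lost after quantile normalization (adjusted p = 0.0501) and without the third naive array (0.0581). Lars2 in knockout activation was lost in 5 settings (0.0517 to 0.296).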
